A study of Mus musculus with 9 samples.

Results

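The comparison described here is that of tazemetostat with DMSO, the usual solvent control, in stimulated CH12F3 cells, followed across all genes by RNA-seq. The libraries were chosen by their labels: the 3 tazemetostat and the 3 DMSO libraries of the series, 6 of its 9 libraries. CH12F3 is a mouse B-lymphoma line that is widely used to study antibody class switching in culture. Both groups share their genotype, a Ligase4 knockout, and their stimulus, 24 h of anti-CD40 together with the cytokines IL-4 and TGF-β. One group received DMSO and the other tazemetostat. The labels used here give neither the dose of the inhibitor nor how long it was applied, and do not say whether the 3 replicates came from separate cultures or whether the knockout is 1 clone. The p-values rest on the spread among replicate libraries, and that spread may be of technical origin. RNA was selected by its poly(A) tail, and the valemetostat libraries of the series entered no step.

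Tazemetostat inhibits EZH2, the catalytic subunit of Polycomb repressive complex 2. This complex places methyl groups on lysine 27 of histone H3, a mark found over the promoters of many genes that are silent in a given cell type, and it needs EED and SUZ12 beside EZH2 or the related EZH1. In B cells EZH2 is known for its part in the germinal centre reaction, and activating mutations of it recur in germinal centre lymphomas. The series' stated aim was to see which transcripts change after EZH2 inhibition in this line.

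The 6 libraries held 34080504 to 46675110 counts, so that 3 counts corresponded to 0.0631 to 0.0864 CPM, that is counts scaled to a common library size. Of 45361 identifiers in the table, 12377 were tested and 26953 had no count in any of the 6 libraries. Within a group the libraries correlated at 0.995 to 0.997 across genes (log CPM), and between groups at 0.977 to 0.985, and 75.3% of the variance lay on a first principal component along which the groups separated. The counts of replicates differed by more than sampling noise. Lig4, the gene named in the genotype, had 0.631, 1.12 and 0.815 CPM in the DMSO libraries and 1.29, 0.492 and 1.38 CPM with tazemetostat; the groups overlapped, and a few transcripts are not informative on the knockout since the position of the lesion is not given in the labels. The B cell markers Cd79a, Pax5 and Cd74 were present in all 6 libraries, and the 12 B cell markers together summed to 7561 to 8230 CPM with DMSO and 9028 to 9209 CPM with tazemetostat. Of 10 T cell markers, Lck and Cd28 made up nearly all of the sum (73.5 to 78.5 CPM with DMSO, 105 to 111 CPM with tazemetostat), while Cd2 was at 0 counts and Cd3e stayed under 1 CPM. The 11 myeloid markers found summed to 32.8 to 35.8 CPM with DMSO and 32.3 to 36.5 CPM with tazemetostat, mostly from Csf1r, with Cd14 and Cebpa at 0 counts. The 12 stromal, endothelial and epithelial markers summed to 2.04 to 3.66 CPM with DMSO and 3.04 to 4.72 CPM with tazemetostat, with 4 of them at 0 counts, and the 7 erythroid markers, nearly all from the transferrin receptor Tfrc, to 939.9 to 1002 and 875 to 887 CPM. Of the other erythroid markers, Hba-a1 rose from 3.01 to 5.57 CPM on average (adjusted p = 0.000273, edgeR) and Gata1 from 0.788 to 1.66 CPM (0.0211).

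With tazemetostat many transcripts differed by small amounts and a smaller number by a great deal, and the large changes were mostly rises from low levels. By edgeR's quasi-likelihood test with Benjamini-Hochberg adjustment, 4557 of 12377 genes (36.8%) passed an adjusted p of 0.05. Of these 2443 (19.7% of the genes tested) rose and 2114 (17.1%) fell. A change of 2-fold or more was called for 632 genes that rose (5.11%) and for 122 that fell (0.986%), so that 3803 of the calls (83.5%) were under 2-fold. The calls ran with transcript length, described below, which cannot be told apart from treatment here. Among genes at a mean log2 CPM of 3 or more, 40.8% rose and 3.73% fell with transcripts under 1000 nt. With transcripts of 8000 nt or more, 9.57% rose and 51.2% fell. The split of the calls moved with the scaling: rises made up 53.6% of all calls with TMM factors and 44.6% with library totals. On the deposited log2(TPM + 1) values, where the test, the length normalization and the pseudocount differ as well, rises made up 39.7%. The median log2 difference of all genes was 0.01, -0.03 and -0.07 in these fits. The groups did not overlap for 5860 genes (47.3%).

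The asymmetry between rises and falls lay among genes of low level. Among 1384 genes with a mean under 1 CPM over the 6 libraries, 260 rose and 81 fell, with a median log2 difference of 2.35 among those that rose. Between 1 and 10 CPM, 522 of 2393 genes rose and 190 fell. Between 10 and 100 CPM the balance was the other way, with 1121 of 6372 genes higher and 1328 lower, and at 100 CPM or more 540 of 2228 rose and 515 fell. The changes at these levels were small: the median log2 difference among the risen genes of 100 CPM or more was 0.20, and among the fallen genes -0.22. Of the 632 genes that rose 2-fold or more, 408 had a mean under 1 CPM in DMSO, while 45 started at 10 CPM or more. Without DMSO replicate 2 the number of 2-fold falls was 76 in place of 122.

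**Figure D1:**
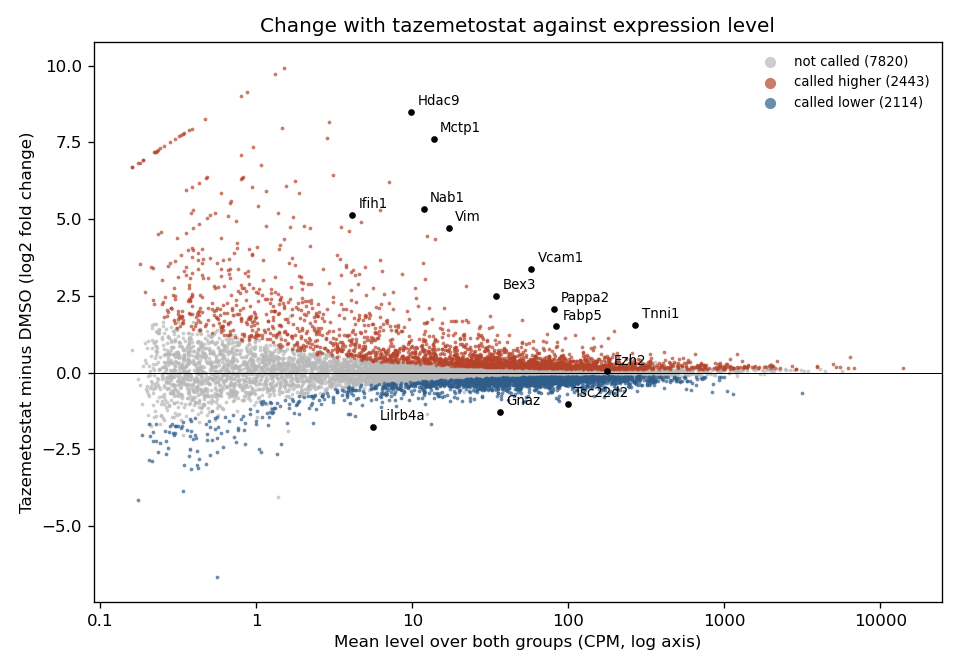
Each point is 1 of the 12377 tested genes, with its mean level over both groups (CPM, log axis) against its log2 fold change (tazemetostat minus DMSO). Genes called higher (2443) are red, genes called lower (2114) blue and the rest grey, and black points with names are genes described in the text. Most of the large differences lie above 0 and toward the left.

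Of the genes named for having been almost silent, Mctp1, Nab1 and Hdac9 reached the highest CPM. Per transcript length they came to 11.4, 7.77 and 7.17 TPM (the length-scaled unit behind the deposited log2 table) with tazemetostat, from 0.09, 0.277 and 0.04 TPM. Mctp1 (ENSMUSG00000021596) encodes a calcium-binding membrane protein with C2 domains. It stood at 0.0631, 0.115 and 0.253 CPM in the DMSO libraries and at 27.1, 27.3 and 27.1 CPM in the tazemetostat libraries. The 3 treated libraries were nearly equal and lay far above every control, a log2 difference of 7.61 ± 0.20 (SE; adjusted p = 4.08e-16, edgeR). Nab1 (ENSMUSG00000002881), a corepressor that binds EGR transcription factors, went from 0.316, 0.489 and 0.955 CPM to 21.9, 24.6 and 22.5 CPM, 5.34 ± 0.21 on the log2 scale. Hdac9 (ENSMUSG00000004698), a class IIa histone deacetylase that binds MEF2 factors, went from 0.021, 0.0288 and 0.112 CPM to 19, 21.6 and 17.8 CPM, a log2 difference of 8.49 ± 0.25 (adjusted p = 3.72e-15, edgeR). For both genes the lowest treated library was more than an order of magnitude above the highest control.

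The promoters of these genes do not resemble each other in CpG content, the dinucleotide that is dense in the CpG islands where Polycomb complexes are known to bind. The 250 bases before the annotated start of Hdac9 and of Nab1 are shown as examples from both ends of the range, from RefSeq on GRCm38.p6, in the direction of the gene and with each CpG in capitals. Hdac9 (chr12:34917096-34917345, minus strand) has 0 CpG in this window, and Nab1 (chr1:52500449-52500698, minus strand) has 40.
Hdac9: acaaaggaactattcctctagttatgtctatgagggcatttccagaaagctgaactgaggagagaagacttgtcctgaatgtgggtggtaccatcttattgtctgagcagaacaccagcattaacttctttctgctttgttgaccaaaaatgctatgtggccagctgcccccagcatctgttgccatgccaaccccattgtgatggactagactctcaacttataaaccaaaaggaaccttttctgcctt
Nab1: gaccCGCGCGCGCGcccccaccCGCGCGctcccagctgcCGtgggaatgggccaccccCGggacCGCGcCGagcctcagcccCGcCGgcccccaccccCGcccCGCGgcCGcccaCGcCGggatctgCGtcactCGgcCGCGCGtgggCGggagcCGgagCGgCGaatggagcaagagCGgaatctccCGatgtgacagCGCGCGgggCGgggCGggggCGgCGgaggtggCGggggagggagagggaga
The first is 44.4% G and C, and the second 80.8%. Between them, the windows of Mctp1, Abcg2, Fam107a and Ifih1 held 1, 3, 11 and 11 CpG, and that of Tcp11x2 held 0. Genes with several annotated starts are represented by the first one listed, and which start the CH12F3 cells use was not tested. No comparison of promoters between classes of genes is given, because fewer than 80% of the genes had a promoter in the table (76.3% of those tested).

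The other 7 genes that were under 1 CPM in DMSO and highest with tazemetostat reached means of 8.01 to 14.1 CPM. Fam107a, an actin-associated protein, had 0.231, 0 and 0.309 CPM with DMSO and 14.2, 14.3 and 13.7 CPM with tazemetostat (6.22 ± 0.30 on the log2 scale). Tcp11x2, an X-linked gene of a family with close copies, rose by 5.29 ± 0.22 and Abcg2, a drug and urate exporter, by 4.90 ± 0.22. Fam241a rose by 3.66 ± 0.17 and Arhgap31, a GTPase-activating protein for CDC42 and RAC1, by 3.44 ± 0.21. Fam171b had the widest spread, with 0.526, 1.7 and 0.534 CPM in the controls and 9.59, 9.06 and 6.07 CPM in the treated libraries, a log2 difference of 3.21 ± 0.42 (adjusted p = 0.000637, edgeR). Ifih1, the cytosolic sensor of long double-stranded RNA also known as MDA5, is described with the interferon-stimulated genes.

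**Figure D2:**
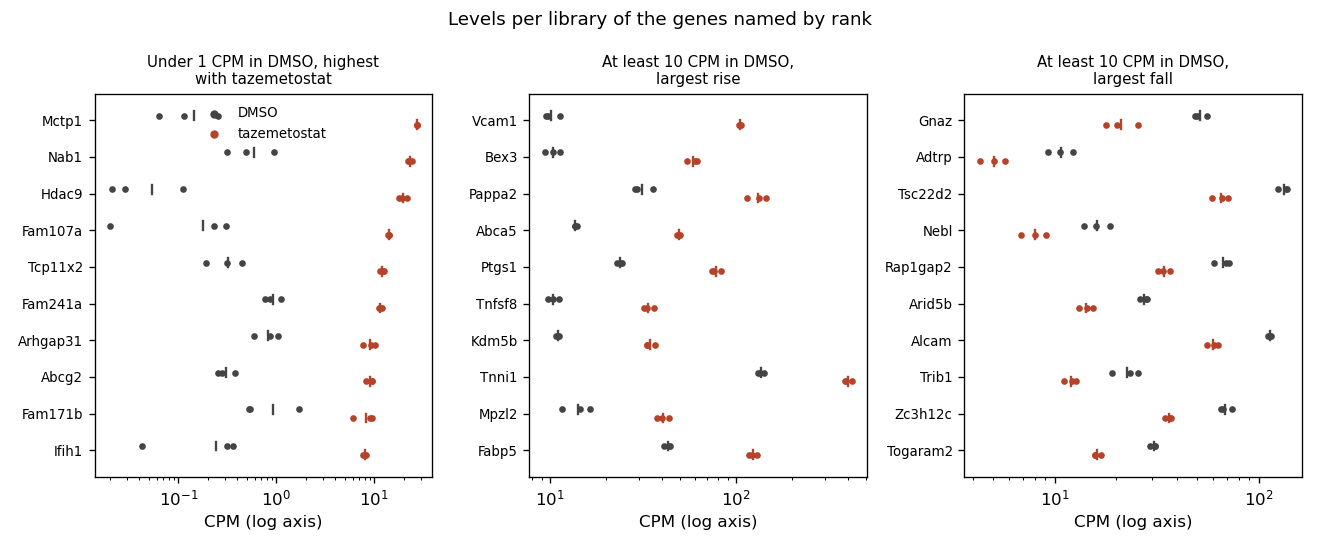
Each point is 1 library (CPM, log axis), grey for DMSO and red for tazemetostat, and the short bar is the mean of the 3; a library at 0 is drawn at the left edge of the first panel. The panels hold the 10 genes that were under 1 CPM in DMSO and highest with tazemetostat, and the 10 with the largest rise and the 10 with the largest fall among genes at 10 CPM or more in DMSO. Genes were picked for these panels only if their groups did not overlap. The 3 red points therefore stand apart from the 3 grey points in each row by selection.

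A count of genes switched on or off that uses no filter gave the same direction. Of 30319 genes with at most 3 counts in the 3 DMSO libraries together, 14 reached at least 1 CPM in each tazemetostat library. Of 29920 genes with at most 3 counts in the 3 tazemetostat libraries, 0 had reached 1 CPM in each DMSO library, and 29030 genes stayed at or under 3 counts in both groups. Without DMSO replicate 2 the second number was 2. The 14 genes do not belong to 1 tissue or pathway by their known roles.

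For Igf1, the insulin-like growth factor, the DMSO libraries held 0, 0 and 2 counts, and those with tazemetostat 253, 240 and 222. From 2 against 715 counts the ratio of levels was 339.8, with an exact 95% interval for counting error from 93.7 to 2811. Csn3, the milk protein kappa-casein, had 2, 1 and 0 counts against 242, 253 and 207, a ratio of 222 (75.8 to 1081). Both were thus near or at the limit of detection in every control and at 5.80 ± 0.39 and 5.68 ± 0.34 CPM (SD, n = 3) with tazemetostat. Shroom3, an actin-binding protein that shapes epithelia, had 0 counts in all controls and 152, 101 and 120 in the treated libraries, at least 118-fold higher when the controls are set to a floor of 3 counts over the group. Rgs21, a regulator of G protein signalling, also had 0 counts in the controls and 109, 144 and 76 counts with tazemetostat (at least 104-fold). Ido1, which degrades tryptophan and is induced by interferon-γ, went from 0 counts to 81, 78 and 57 (at least 68.4-fold). Enpp1, an ectoenzyme that hydrolyses ATP and the cyclic dinucleotide cGAMP, went from 0 counts to 83, 61 and 54 (at least 62.7-fold).

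Cr2, the complement receptor CD21 of mature B cells, had 3, 0 and 0 counts with DMSO and 68, 96 and 66 with tazemetostat (ratio 72.9, interval 24.6 to 356). Lyz2, the lysozyme of macrophages and granulocytes, had 2, 1 and 0 counts against 63, 52 and 52 (52.9, interval 17.8 to 259), and reads may be shared with its close copy Lyz1. The macrophage marker Adgre1 rose as well, from 2.73, 2.995 and 2.64 CPM to 9.09, 7.99 and 7.76 CPM, while Csf1r, the receptor that macrophages depend on, fell from 29.9, 28.9 and 27.1 CPM to 23.2, 21.9 and 19.95 CPM. The summed level of the 11 myeloid markers overlapped between the groups, as given above, and Cd14 and Cebpa had no count in any library. The other 6 genes switched on were Gpr141, an orphan receptor, the homeobox gene Pknox2, the microtubule-associated Map7d2, the phosphatase gene Ppm1l, Otogl, known from the inner ear, and Sh3rf3, with 194 to 360 summed counts with tazemetostat and 1 or 2 with DMSO. In bulk RNA a switch in every cell at a low level and a switch in a few cells at a high level cannot be told apart.

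**Figure D3:**
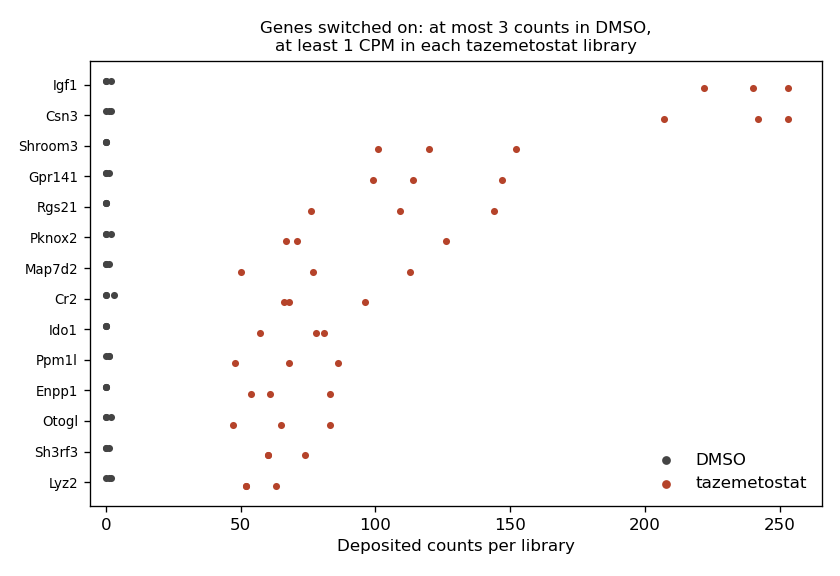
Deposited counts per library (linear axis) of the 14 genes with at most 3 counts in the 3 DMSO libraries together and at least 1 CPM in each tazemetostat library. Grey points are the 3 DMSO libraries, which lie at 0 to 3 counts, and red points the 3 tazemetostat libraries, which lie at 47 counts or more.

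Among the genes at 10 CPM or more in DMSO, Vcam1 had the largest log2 difference of those named. Vcam1 (ENSMUSG00000027962), the adhesion molecule that binds the integrin α4β1, was at 9.46, 9.73 and 11.3 CPM in the DMSO libraries and at 104, 106 and 105 CPM with tazemetostat. The difference was 3.38 ± 0.07 on the log2 scale, 10.4-fold (adjusted p = 1.88e-17, edgeR), and the replicates differed little within each group. Bex3, an adaptor of the neurotrophin receptor p75, went from 11.2, 9.36 and 10.4 CPM to 60.4, 54.2 and 61.3 CPM, 5.65-fold. Pappa2, a protease that cleaves IGF-binding proteins, went from 28.8, 35.6 and 29.4 CPM to 146, 134 and 115 CPM, 4.21-fold. Every treated library lay above every control for these genes, which the rule that picked them required.

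The next genes by size of rise belong to lipid handling, muscle, chromatin and immune signalling. Abca5, a lipid transporter, rose by 1.84 ± 0.07 on the log2 scale from 13.7 ± 0.25 CPM (SD, n = 3), and Ptgs1, the constitutive cyclooxygenase, by 1.71 ± 0.07 from 23.7 ± 0.82 CPM. Kdm5b, a demethylase of lysine 4 of histone H3, had 11.1, 11.2 and 10.8 CPM with DMSO and 36.6, 33.2 and 33.4 CPM with tazemetostat (1.64 ± 0.08). Tnni1, a troponin of slow skeletal muscle, was strongly expressed in these cells at 131, 134 and 142 CPM and reached 388, 390.2 and 419.7 CPM (1.56 ± 0.05). Fabp5, a fatty acid-binding protein, rose from 43 ± 1.6 to 123 ± 6.1 CPM and Mpzl2, a cell adhesion protein, from 14.2 ± 2.5 to 40.4 ± 3.1 CPM. Tnfsf8, the ligand of CD30, rose by 1.70 ± 0.09 and is taken up again with its family.

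Falls from a similar starting level were smaller. Of genes at 10 CPM or more in DMSO, 5 fell 2-fold or more, against 45 that rose by as much. Gnaz (ENSMUSG00000040009), a G protein alpha subunit that inhibits adenylyl cyclase, was at 55.7, 48.8 and 49.7 CPM with DMSO and 25.5, 20.2 and 17.9 CPM with tazemetostat, a log2 difference of -1.27 ± 0.11 (adjusted p = 4.84e-07, edgeR). Tsc22d2 went from 137, 136 and 124 CPM to 71, 66.4 and 59.3 CPM (-1.01 ± 0.06). Both fell in every treated library below the lowest control, which the rule that picked them required. Adtrp, which hydrolyses a class of fatty acid esters, fell to 5.03 ± 0.72 from 10.7 ± 1.5 CPM (-1.09 ± 0.14), and Nebl, an actin-binding nebulin relative, to 7.99 ± 1.1 from 16.2 ± 2.4 CPM (-1.01 ± 0.13). The call of Nebl was lost on the deposited log2(TPM + 1) values (limma, adjusted p = 0.0807).

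Irf8, Cd36 and Alcam were among the falls with the smallest p. Irf8, a transcription factor of germinal centre B cells and of the myeloid lineage, was at 110.5, 108 and 112 CPM with DMSO and at 66.3, 62.3 and 63.3 CPM with tazemetostat (-0.78 ± 0.05, adjusted p = 4.59e-10, edgeR). Cd36, a scavenger receptor for lipids, fell from 108, 111 and 113 to 59.1, 61.7 and 61.6 CPM (-0.86 ± 0.05), and Alcam, the ligand of CD6, from 111, 115 and 113 to 60.1, 63 and 55.8 CPM (-0.93 ± 0.05). In each case the 3 treated libraries lay under the 3 controls, which the rule that picked these genes required. Myo5a, an actin motor, fell by 0.81 ± 0.05 on the log2 scale, Rap1gap2 by 0.96 ± 0.07, the chromatin factor Arid5b by 0.94 ± 0.08 and the ribonuclease gene Zc3h12c by 0.92 ± 0.06. Trib1, a pseudokinase that directs C/EBP proteins to degradation, fell by 0.92 ± 0.11 and Togaram2 by 0.92 ± 0.08.

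The transcripts of the drug's target complex moved little. Ezh2 was at 172, 170.3 and 179 CPM in the DMSO libraries and 182, 182 and 171 CPM in the tazemetostat libraries. The groups overlapped, with a log2 difference of 0.04 ± 0.05 (95% interval -0.05 to 0.13, adjusted p = 0.523, edgeR). Ezh1 differed by -0.08 ± 0.09 (adjusted p = 0.504) and Eed by 0.05 ± 0.05 (adjusted p = 0.513), both by edgeR. Suz12 fell, from 135, 149 and 145 CPM to 133, 126 and 123 CPM, by 0.17 on the log2 scale (SE 0.05, adjusted p = 0.0133, edgeR). That call was lost without DMSO replicate 2 (adjusted p = 0.0704, edgeR), without tazemetostat replicate 2 (0.0517) or 3 (0.0534), and on log2(TPM + 1) values (0.0582, limma). The RNA gives no measure of the enzyme's activity or of the histone mark.

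Most of the interferon-stimulated genes tested rose, in cells to which no interferon had been added according to the labels. Of 48 genes in the list, 37 could be tested; 28 of them rose and 9 did not pass the test (75.7% called higher, where all genes tested gave 19.7%). Members such as Oas1a and Ifih1 passed the filter on low counts through the treated libraries, so the share is not read against that of all genes, and the same holds for other lists with members near 0 in DMSO. The median log2 difference of the tested members was 0.69, and 15 of the 28 rose 2-fold or more. By edgeR none was called lower, with 1 member lower at an unadjusted p under 0.05 (Stat2, -0.25 ± 0.10, adjusted p = 0.054) and 0 called lower by DESeq2. Stat2 was called lower with median-ratio factors or with library totals. The other 11 members were at or under 0.324 CPM on average in both groups, among them Rsad2 and Zbp1 with no count, so the list moved only in part.

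Several sensors and antiviral effectors rose from low levels. Ifih1 had 0.0421, 0.317 and 0.365 CPM with DMSO and 7.75, 8.2 and 8.06 CPM with tazemetostat (5.14 ± 0.33, adjusted p = 1.23e-09, edgeR). Ddx58, which encodes the RNA sensor RIG-I, rose from 2.27, 1.81 and 2.87 to 5.09, 6.79 and 4.08 CPM (1.20 ± 0.22), and Dhx58 from 22.5 ± 1.2 to 32.3 ± 4.3 CPM (0.52 ± 0.09). All 3 RNA sensors of this family thus rose, and by different factors. Oas1a, an oligoadenylate synthetase that activates RNase L, was at 0.168, 0.144 and 0.169 CPM with DMSO and 4.26, 4.05 and 4.52 CPM with tazemetostat (4.70 ± 0.31), while its neighbour Oas1b stayed at 1.9 ± 0.12 and 1.96 ± 0.37 CPM. Oas1a and Oas1b belong to a cluster of close copies, so that reads may be split between them. Usp18, which removes ISG15 from proteins, rose by 2.17 ± 0.35 from 0.548 ± 0.21 CPM, and Isg15 itself by 0.58 ± 0.16 from 3.69 ± 0.43 CPM. Ifit2, which restrains viral translation, rose by 1.58 ± 0.15 from 2.8 ± 0.25 CPM. The call of Isg15 was lost without DMSO replicate 2 (adjusted p = 0.0507, edgeR), and that of Ddx58 on log2(TPM + 1) (0.277, limma).

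The guanylate-binding proteins, GTPases that attack the vacuoles of intracellular pathogens, rose in each of the 5 members tested. Gbp2 was at 2.46, 2.22 and 2.5 CPM with DMSO and at 11.8, 11.9 and 11.4 CPM with tazemetostat (2.28 ± 0.14, adjusted p = 1.15e-10, edgeR). Gbp3 was at 8.64, 8.18 and 9.52 CPM and 28.3, 27.9 and 28.6 CPM (1.69 ± 0.09). The 3 libraries of each group agreed closely and the groups did not overlap. Gbp7 rose by 2.91 ± 0.24, Gbp5 by 2.91 ± 0.30 and Gbp6 by 1.14 ± 0.39, all from under 1 CPM, and these genes too have near copies between which reads may be shared. The transcription factor genes Irf1 and Irf9 rose by 0.56 ± 0.08 and 0.29 ± 0.11. Lgals3bp, a secreted glycoprotein, went from 113, 115 and 114 to 238, 251 and 248 CPM (1.11 ± 0.04), and the antigen-processing genes Tap1 and Psmb9 rose by 0.36 ± 0.05 and 0.41 ± 0.05. The call of Gbp6 was lost without DMSO replicate 1 (adjusted p = 0.108, edgeR), DMSO replicate 2 (0.0614), tazemetostat replicate 2 (0.103) or tazemetostat replicate 3 (0.093) and on log2(TPM + 1) (0.0928, limma). That of Irf9 was lost when any library but tazemetostat replicate 1 was left out (0.0612 to 0.149, edgeR), by DESeq2 (0.0753), with library totals (0.0665) and on log2(TPM + 1) (0.117, limma).

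Interferon signalling acts on promoters through the interferon-stimulated response element, whose core is a pair of GAAA words with 2 bases between them. This motif, GAAA, any 2 bases, then GAAA, was searched for on both strands in the 250 bases before each start and was found in 821 of 27025 promoters of the RefSeq table (3.04%). Among the interferon-stimulated genes that rose, 21 of 28 had a promoter in the table, too few for a comparison, and 8 of these 21 held the motif, as did 3 of 7 among the members not called. The windows of Gbp2 (chr3:142620413-142620662, plus strand), Gbp3 (chr3:142559794-142560043, plus strand), Oas1a (chr5:120907526-120907775, minus strand) and Isg15 (chr4:156200819-156201068, minus strand) show where it lies, on GRCm38.p6 and in the direction of the gene, with the matches in capitals. A match on the opposite strand reads as a pair of TTTC words.
Gbp2: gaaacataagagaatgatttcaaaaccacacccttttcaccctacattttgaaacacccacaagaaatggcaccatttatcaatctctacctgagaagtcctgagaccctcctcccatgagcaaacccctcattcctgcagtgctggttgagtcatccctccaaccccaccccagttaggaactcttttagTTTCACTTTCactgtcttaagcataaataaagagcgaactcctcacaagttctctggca
Gbp3: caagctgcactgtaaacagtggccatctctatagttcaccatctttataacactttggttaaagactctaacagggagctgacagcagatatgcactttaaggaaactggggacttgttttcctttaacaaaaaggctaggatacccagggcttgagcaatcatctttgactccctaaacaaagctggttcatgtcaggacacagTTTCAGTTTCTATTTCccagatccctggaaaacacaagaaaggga
Oas1a: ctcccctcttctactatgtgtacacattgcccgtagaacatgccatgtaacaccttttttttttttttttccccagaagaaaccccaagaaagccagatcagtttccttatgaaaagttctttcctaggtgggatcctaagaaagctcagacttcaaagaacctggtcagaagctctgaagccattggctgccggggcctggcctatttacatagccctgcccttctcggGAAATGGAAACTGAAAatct
Isg15: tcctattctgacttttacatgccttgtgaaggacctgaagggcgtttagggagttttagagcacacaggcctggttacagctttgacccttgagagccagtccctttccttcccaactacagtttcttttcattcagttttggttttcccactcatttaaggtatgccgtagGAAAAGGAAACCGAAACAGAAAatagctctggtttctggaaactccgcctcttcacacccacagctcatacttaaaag
The matches number 1, 2, 2 and 3 in these windows, and those of 1 gene overlap where there are several. Oas1a with 2 matches rose by 4.70 ± 0.31 and Isg15 with 3 by 0.58 ± 0.16. Whether the size of the rise runs with the number of matches was not tested. The window of Ifih1 held no match.

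Genes of the B cell receptor pathway, which turns antigen binding into calcium and kinase signals, went both ways and by less than 2-fold. All 26 were tested; 5 rose (19.2%, beside 19.7% of all genes), 7 fell (26.9%, beside 17.1%) and the median log2 difference was -0.02. Pik3r1, the regulatory subunit of PI3-kinase, rose from 18.5, 20.6 and 17.1 to 35, 36.3 and 32.5 CPM (0.89 ± 0.08, adjusted p = 5.28e-08, edgeR). The receptor's signalling chain Cd79b rose from 102, 100.1 and 117 to 144, 137 and 151 CPM (0.44 ± 0.06) and Cd79a by 0.16 ± 0.05, though the call of Cd79a was lost without DMSO replicate 2 (adjusted p = 0.0935, edgeR), with the offset for transcript length and GC content (0.144) and on log2(TPM + 1) (0.238, limma). Of the Src-family kinases, Fyn fell from 93.7, 86.6 and 80.7 to 61.8, 64.2 and 63.4 CPM (-0.46 ± 0.06) and Blk by 0.36 ± 0.06, while Lyn differed by -0.14 ± 0.07 (adjusted p = 0.122, edgeR). Rasgrp3, which activates RAS, fell by 0.32 ± 0.05. Syk and Btk, the central kinases, differed by 0.00 ± 0.05 and 0.03 ± 0.05 and were not called. The number of members that rose was 3 in place of 5 without DMSO replicate 2, tazemetostat replicate 1 or tazemetostat replicate 2, and with library totals.

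Receptors and phosphatases that restrain B cells rose in 6 of 22 tested members (27.3%, beside 19.7% of all genes) and fell in 2 (9.09%, beside 17.1%), with a median of 0.13. Lilrb4a, an inhibitory immunoglobulin-like receptor, fell most: it was at 9.3, 10.4 and 6.09 CPM with DMSO and at 2.47, 2.55 and 2.58 CPM with tazemetostat (-1.76 ± 0.18, adjusted p = 3.28e-07, edgeR). The 3 treated libraries were nearly equal and all under the lowest control, though Lilrb4a has a close copy. Btla, a receptor for HVEM, fell from 36.5, 35.1 and 38 to 26.4, 25.4 and 21.9 CPM (-0.57 ± 0.08). On the other side Ptpn22, a phosphatase of antigen receptor signalling, rose from 36.2, 39 and 41.8 to 60.3, 58.1 and 59.2 CPM (0.60 ± 0.06) and Ceacam1 from 9.8, 10.3 and 9.27 to 18.3, 17.1 and 14.9 CPM (0.77 ± 0.11). Fcgr2b, the inhibitory IgG receptor, rose by 0.73 ± 0.13 and Pdcd1, which encodes PD-1, by 0.75 ± 0.19 from 2.94 ± 0.61 CPM.

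The stimulus used here acts through CD40, the IL-4 receptor and the TGF-β receptors. Of 27 genes for CD40, TRAF adaptors and NF-κB, 7 rose (25.9%) and 5 fell (18.5%), near the shares of all genes (19.7% and 17.1%), with a median of 0.00. Bcl3, an atypical inhibitor that binds p50 and p52, rose from 14.2, 15.3 and 15.2 to 27.1, 28.2 and 25.9 CPM (0.86 ± 0.08), and Nfkbia, the inhibitor IκBα, from 370.5, 381 and 397 to 550.1, 527 and 534 CPM (0.49 ± 0.04). Cd40 itself rose by 0.30 ± 0.06 and Nfkb1, the precursor of p50, by 0.30 ± 0.04. Chuk, the kinase IKKα, fell from 91.4, 94.7 and 88.1 to 63, 61.7 and 61.4 CPM (-0.56 ± 0.05), Birc2, a ubiquitin ligase of the receptor complex, by 0.43 ± 0.05, and Traf3, which restrains the noncanonical pathway, by 0.23 ± 0.06. The subunits Rela, Relb, Rel and Nfkb2 lay between -0.10 and 0.11 and were not called.

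Both signalling receptors for TGF-β changed, in opposite directions. Tgfbr1 was at 103, 103 and 108 CPM with DMSO and 192, 185 and 182 CPM with tazemetostat (0.83 ± 0.05, adjusted p = 4.5e-11, edgeR). Tgfbr2, which binds the ligand and phosphorylates the first, was at 122, 121 and 129 CPM and 87.3, 84.5 and 85.4 CPM (-0.53 ± 0.05). The groups did not overlap for either receptor. The ligand gene Tgfb1 rose by 0.32 ± 0.05, and the coreceptor Tgfbr3 had 1 count in the controls and 105 with tazemetostat (ratio 99.8, exact 95% interval 17.5 to 3978, counting error only). Runx2 rose from 11.8, 10.9 and 9.91 to 26, 26.7 and 23.2 CPM (1.22 ± 0.09), while Runx1 and Runx3, the latter needed for switching to IgA, differed by 0.01 ± 0.09 and 0.08 ± 0.06 and were not called. Among the SMAD signal carriers Smad2 rose by 0.27 ± 0.06, and Smad5 and the inhibitory Smad7 fell by 0.35 ± 0.07 and 0.27 ± 0.08. The call of Smad7 was lost without DMSO replicate 1 (adjusted p = 0.0595, edgeR) or tazemetostat replicate 2 (0.057), and those of Smad2, Smad5 and Smad7 on log2(TPM + 1) (0.235, 0.0882 and 0.219, limma). In all 6 of 24 tested members rose (25%, beside 19.7% of all genes) and 7 fell (29.2%, beside 17.1%), with a median of -0.01; the number that fell was 4 without DMSO replicate 2 and 3 without tazemetostat replicate 2.

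Immediate early genes, which respond within minutes to receptor signals, rose in 11 of 26 tested members (42.3%, beside 19.7% of all genes) and fell in 2 (7.69%, beside 17.1%), with a median of 0.19. The list also counts Nab1, the EGR corepressor described above, among the risen genes. Jun went from 56.3, 55.4 and 54.5 to 99.1, 92.2 and 92.2 CPM (0.77 ± 0.05) and Fos from 13, 14.5 and 13.9 to 22.2, 23 and 25.2 CPM (0.77 ± 0.09), partners in the factor AP-1. Their relatives Junb and Jund, at 466 and 511 CPM on average with DMSO, differed by 0.09 ± 0.05 and 0.10 ± 0.05 and were not called. Nor were Fosb, Egr1, Egr2 and Nr4a2. The orphan nuclear receptors Nr4a1 and Nr4a3 rose by 0.92 ± 0.13 and 1.89 ± 0.23, from 23.9 ± 4.1 and 2.16 ± 0.85 CPM. Ier3, an NF-κB target, rose by 0.53 ± 0.06, and Ier2 fell by 0.23 ± 0.05. Of the phosphatases that switch off MAP kinases, Dusp10 and Dusp4 rose by 0.60 ± 0.08 and 0.43 ± 0.05, and Dusp2 fell by 0.30 ± 0.06.

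TNF-family ligands and receptors rose in 13 of 27 tested members (48.1%, beside 19.7% of all genes) and fell in 1 (3.70%, beside 17.1%), with a median of 0.42. Of the tested members, 6 had a mean under 1 CPM in DMSO. Such members can pass the filter on low counts through the treated libraries, so the share is not read against that of all genes. Under the stricter low-count filter described below 11 members rose and 1 fell, with a median of 0.16. On log2(TPM + 1) 9 rose and 1 fell, also with a median of 0.16. Ligands among them were Tnfsf15, Tnfsf8 and Tnfsf4. Tnfsf15, also called TL1A, went from 40.3, 44.9 and 42 CPM to 109.6, 104 and 93.4 CPM (1.27 ± 0.06), Tnfsf8 from 9.78, 11.1 and 10.3 to 36.3, 31.8 and 33.1 CPM (1.70 ± 0.09) and Tnfsf4, the OX40 ligand, from 1.87, 2.79 and 2.16 to 7.73, 6.72 and 7.78 CPM (1.71 ± 0.18). No control library reached the lowest treated library of any of these. Among the receptors, Tnfrsf13c, through which BAFF keeps B cells alive, rose from 105, 108 and 112 to 184, 179 and 174 CPM (0.73 ± 0.05), and the death receptor Fas by 0.55 ± 0.06. Tnf was the member that fell, from 18.4, 18.2 and 18.5 to 11.2, 10.6 and 10.8 CPM (-0.76 ± 0.09, adjusted p = 2.7e-06, edgeR).

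Of the interleukins and their receptors, 10 of 32 tested members rose (31.2%, beside 19.7% of all genes) and 5 fell (15.6%, beside 17.1%), with a median of 0.23. Here 8 of the tested members had a mean under 1 CPM in DMSO, so this share too is not read against that of all genes. Under the stricter low-count filter described below 8 members rose and 5 fell, with a median of 0.22. Several of the rises lay in the IL-1 system, of which other members were absent or very low. The receptor genes Il1r1, Il1rl1, Il18r1 and Il18rap had 0 counts in all 6 libraries, and the cytokine genes Il1a and Il1b were too low to be tested. Il1r2, a decoy receptor for IL-1, went from 13.9, 13.1 and 15.8 to 41.5, 38.4 and 37.6 CPM (1.46 ± 0.08), Il1rap, the shared accessory chain, from 1.01, 0.749 and 0.449 to 8.56, 6.35 and 8.04 CPM (3.34 ± 0.24), and Il1rn, the soluble antagonist, rose by 1.86 ± 0.25 from 1.03 ± 0.24 CPM. Il33, a cytokine of the same family, was at 0.105, 0 and 0 CPM with DMSO and 0.721, 0.913 and 0.45 CPM with tazemetostat. Il2rb and Il2rg, chains of the IL-2 receptor, rose by 0.61 ± 0.08 and 0.36 ± 0.05. Il21r, the receptor for the follicular helper cytokine IL-21, fell from 296, 299 and 298 to 238, 238 and 234 CPM (-0.33 ± 0.04), and Il9r and Il17ra fell by 0.33 ± 0.06 and 0.40 ± 0.07. The number that fell was 3 without tazemetostat replicate 3.

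Receptors that guide lymphocytes rose in 11 of 25 tested members (44.0%, beside 19.7% of all genes) and fell in 3 (12.0%, beside 17.1%), with a median of 0.21. Selplg, the ligand of P-selectin, went from 55, 63.6 and 60.6 to 110.5, 105 and 103 CPM (0.83 ± 0.06) and Ptger4, a prostaglandin E2 receptor, from 25.9, 27.8 and 27.6 to 44.3, 40.8 and 42.7 CPM (0.65 ± 0.07). The lymph node homing receptor Ccr7 rose from 349, 365 and 368 to 440.3, 438 and 450.0 CPM (0.30 ± 0.04) and the follicle homing receptor Cxcr5 by 0.22 ± 0.05, while Cxcr4 fell by 0.16 ± 0.05. The call of Cxcr4 was lost without tazemetostat replicate 2 (adjusted p = 0.0649, edgeR) or 3 (0.0569), and that of Cxcr5 on log2(TPM + 1) (0.13, limma). Itgax, which encodes the integrin chain CD11c, rose from 0.316, 0.0576 and 0.421 to 1.86, 2.51 and 2.7 CPM (3.11 ± 0.45). The number that fell was 1 without tazemetostat replicate 2 or 3. Behind such receptors act G proteins and the RGS proteins that switch them off. Among these, 11 of 21 tested members rose (52.4%, beside 19.7% of all genes) and 4 fell (19.0%, beside 17.1%). The median was 0.15. The risen members Rgs16 and Rgs18 lay under 1 CPM in every DMSO library. Neither was tested under the stricter low-count filter described below, where 9 members rose and 4 fell. Gna15 rose from 6.54, 5.21 and 6.32 to 17, 19.2 and 19.4 CPM (1.61 ± 0.12), Rgs10 from 4.56, 4.89 and 4.72 to 12.2, 14 and 10.4 CPM (1.37 ± 0.13) and Rgs2 from 9.93, 8.96 and 8.09 to 18.9, 18.9 and 19.5 CPM (1.08 ± 0.10). Rgs13, an RGS protein of germinal centre B cells, fell by 0.57 ± 0.06 from 206 ± 20.9 CPM, next to Gnaz described above.

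**Figure D4:**
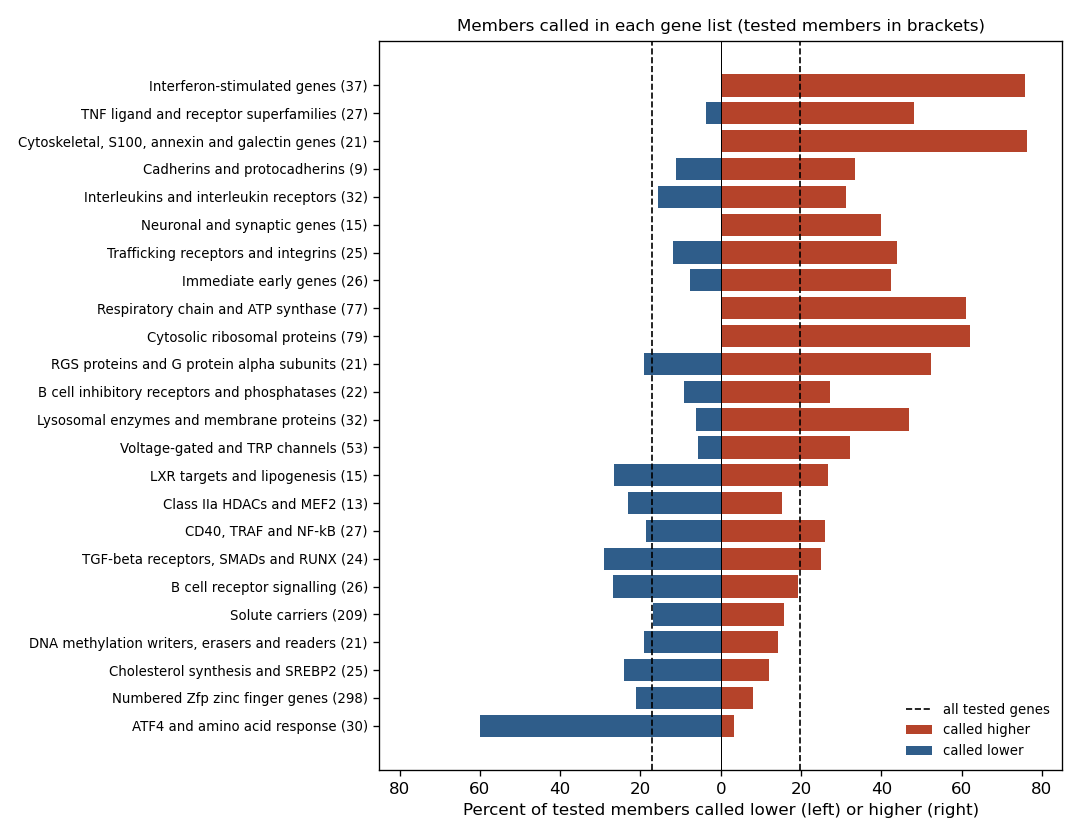
For each of 24 gene lists, the percent of tested members called higher (red, to the right) and lower (blue, to the left) with tazemetostat. The dashed lines mark the same shares among all 12377 tested genes (19.7% higher, 17.1% lower), and lists are ordered by their median log2 fold change. Interferon-stimulated genes (28 of 37 higher) and the genes of the amino acid response (18 of 30 lower) lie at the 2 ends.

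Cytoskeletal, S100, annexin and galectin genes rose in 16 of 21 tested members (76.2%, beside 19.7% of all genes), with a median of 0.41. By edgeR none was called lower, with 1 lower at an unadjusted p under 0.05 (Anxa7, -0.12 ± 0.05, adjusted p = 0.0689) and 0 by DESeq2; Anxa7 was called lower, among other settings, with library totals, with the offset for transcript length, on log2(TPM + 1) and without DMSO replicate 1. Vim (ENSMUSG00000026728), the intermediate filament vimentin, had 1.22, 1.3 and 1.24 CPM with DMSO and 33.7, 34.9 and 30.1 CPM with tazemetostat, 26.3-fold (log2 4.72 ± 0.12, adjusted p = 3.1e-16, edgeR). Lmna, which encodes the nuclear lamins A and C, went from 16.9, 16 and 17.3 to 45.8, 46.2 and 44.5 CPM (1.44 ± 0.07). Both filament genes separated the groups completely. Among the annexins, which bind membranes in the presence of calcium, Anxa5 rose from 45.3, 42.2 and 47.7 to 91.9, 92.7 and 90.9 CPM (1.03 ± 0.06) and Anxa4 by 0.92 ± 0.08. The actin-sequestering thymosin Tmsb4x rose by 0.66 ± 0.06, S100a10 by 0.64 ± 0.07 and the tetraspanin Cd9 by 0.84 ± 0.09. Vim is also a stromal gene. Of the stromal, endothelial and epithelial markers, Lum, a proteoglycan of connective tissue, rose from 0 CPM in each control to 0.524, 0.539 and 0.393 CPM (adjusted p = 0.000105, edgeR), Col1a1 was at 0.144 CPM on average with DMSO and 0.384 CPM with tazemetostat and was not called, and Col1a2 and Col3a1 had 0 counts. The part of such cells in the rise of Vim was not tested.

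Lysosomal genes rose in 15 of 32 tested members (46.9%, beside 19.7% of all genes) and fell in 2 (6.25%, beside 17.1%), with a median of 0.10. The changes were below 2-fold. Ctsb, a cysteine protease, went from 151, 146 and 160.2 to 208, 206 and 204 CPM (0.43 ± 0.05) and the membrane proteins Lamp1 and Lamp2 rose by 0.37 ± 0.05 and 0.38 ± 0.05. The protease gene Ctsc and the acid lipase gene Lipa fell by 0.17 ± 0.04 and 0.24 ± 0.06.

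Genes of lipid metabolism went both ways. Of 15 tested targets of the sterol receptors LXR and lipogenic genes, 4 rose (26.7%, beside 19.7% of all genes). As many fell (26.7%, beside 17.1%), and the median was 0.06. Apoe, an apolipoprotein that carries cholesterol, went from 53.4, 42.1 and 48.5 to 94.4, 95.4 and 99.5 CPM (1.0 ± 0.07), and the cholesterol exporters Abcg1 and Abca1 from 53, 55.8 and 50 to 91.2, 87 and 83.7 CPM (0.72 ± 0.06) and from 4.52, 3.57 and 2.89 to 12, 11 and 8.88 CPM (1.53 ± 0.16). Fasn, the fatty acid synthase, fell from 719, 719 and 637 to 544, 551 and 535 CPM (-0.35 ± 0.05), the desaturase gene Scd1 by 0.30 ± 0.05 and Acaca by 0.21 ± 0.06. The call of Acaca was lost without DMSO replicate 2 (adjusted p = 0.0528, edgeR), with the offset for transcript length and GC content (0.224) and on log2(TPM + 1) (0.33, limma). The desaturase gene Fads2 rose by 0.16 ± 0.04, a call lost on log2(TPM + 1) (adjusted p = 0.547, limma), while Scd2, Fads1 and Elovl5, which also act in fatty acid synthesis, differed by 0.06 ± 0.05, 0.00 ± 0.05 and 0.00 ± 0.05 and were not called. The groups did not overlap for any of Apoe, Abcg1, Abca1 and Fasn. Of 25 genes of cholesterol synthesis and uptake, 3 rose (12.0%, beside 19.7% of all genes) and 6 fell (24.0%, beside 17.1%), with a median of -0.05. Acat2 differed by -0.25 ± 0.05 and Lss by -0.21 ± 0.04. The number of lipogenic and LXR members that fell was 2 without DMSO replicate 2, and that of cholesterol genes that rose was 1 without DMSO replicate 1, DMSO replicate 2 or tazemetostat replicate 2 and with library totals.

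Of the genes of the amino acid response, 18 of 30 tested members fell, 11 were not called and 1 rose. ATF4 is a transcription factor whose targets supply amino acids and charge transfer RNAs. The shares were 60.0% lower and 3.33% higher, beside 17.1% and 19.7% of all genes, and the median log2 difference was -0.17. Sesn2, an inhibitor of mTORC1 signalling, went from 182, 182 and 168 to 131, 129 and 140.5 CPM (-0.41 ± 0.05, adjusted p = 2.6e-06, edgeR), and Trib3, a feedback inhibitor of ATF4, from 111, 105 and 107 to 74.6, 79.6 and 91.6 CPM (-0.40 ± 0.06). Cebpg, a partner of ATF4, fell from 82.1, 80.6 and 87.9 to 65.2, 64.8 and 66.4 CPM (-0.35 ± 0.05), and Aldh18a1, which makes proline precursors, by 0.31 ± 0.04. No fall in the list reached 2-fold. Atf4 itself fell by 0.13 ± 0.04 and Ddit3, which encodes CHOP, by 0.34 ± 0.08. The synthetase genes Lars, Iars, Wars and Cars fell by 0.26 ± 0.04, 0.22 ± 0.04, 0.20 ± 0.04 and 0.19 ± 0.04. Among members not called, Phgdh, the first enzyme of serine synthesis, differed by 0.05 ± 0.05 and the synthetase genes Tars and Sars by 0.07 ± 0.04 and 0.01 ± 0.04. Cebpb was the member that rose (0.56 ± 0.16, from 3.94 ± 0.49 CPM); its call was lost without DMSO replicate 1 (adjusted p = 0.0514, edgeR), where 0 members were called higher. The call of Atf4 was lost without DMSO replicate 3 (0.0663), tazemetostat replicate 1 (0.155) or tazemetostat replicate 2 (0.105). The number that fell was 23 with the offset for transcript length and GC content and 23 on log2(TPM + 1), where the median of all genes was -0.07. It was 15 without DMSO replicate 3, tazemetostat replicate 1 or tazemetostat replicate 2.

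Respiratory chain and ribosomal protein genes rose in most members by small amounts, and these counts moved with the processing. Of 77 tested respiratory genes 47 rose (61.0%, beside 19.7% of all genes; median 0.19), and of 79 ribosomal protein genes 49 rose (62.0%; median 0.17). By edgeR and by DESeq2 none was called lower, nor was any lower at an unadjusted p under 0.05 (0 in each list). Cycs, the electron carrier cytochrome c, went from 109, 97.8 and 107 to 145, 154 and 158 CPM (0.54 ± 0.05), Uqcrh of complex III from 82.7, 71.6 and 84.8 to 105, 105 and 114 CPM (0.43 ± 0.06), and the complex IV subunits Cox7c and Cox7a2 rose by 0.52 ± 0.07 and 0.39 ± 0.06. Among the ribosomal proteins, whose many processed copies in the genome can share reads, Rpl27a went from 899, 866 and 1006 to 1096, 1096 and 1138 CPM (0.27 ± 0.05) and Rps26, Rps13 and Rps20 rose by 0.26 ± 0.06, 0.24 ± 0.06 and 0.23 ± 0.05. The calls of Rps26, Rps13 and Rps20 were lost on log2(TPM + 1) values (limma, adjusted p = 0.0517, 0.0846 and 0.139). For each of these genes the lowest control was DMSO replicate 2 and the highest treated library tazemetostat replicate 3. Without the first, 28 respiratory and 21 ribosomal genes rose, and without the second 30 and 21.

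Both lists hold short transcripts, with median lengths of 1129 and 1059 nt against 3247 nt among the tested genes whose length is annotated. Each library's deviation from the mean ran with transcript length: across 8925 genes Spearman's rho was 0.22, 0.47 and 0.10 for the DMSO libraries and -0.18, -0.17 and -0.48 for the tazemetostat libraries, given as a description. The median log2 difference fell from 0.16 for transcripts under 1000 nt to -0.19 for those of 8000 nt or more. With an offset for length and GC content fitted in each library these medians lay between -0.03 and 0.00. Under that offset 21 respiratory genes rose and 2 fell (median 0.07), and 17 ribosomal genes rose and 1 fell (median 0.04). On log2(TPM + 1) 14 and 4 rose. Since length bias and treatment run along the same libraries, they cannot be told apart here. Of the interferon-stimulated genes 28 were called higher under the offset, with a median of 0.55, and 21 on log2(TPM + 1).

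**Figure D5:**
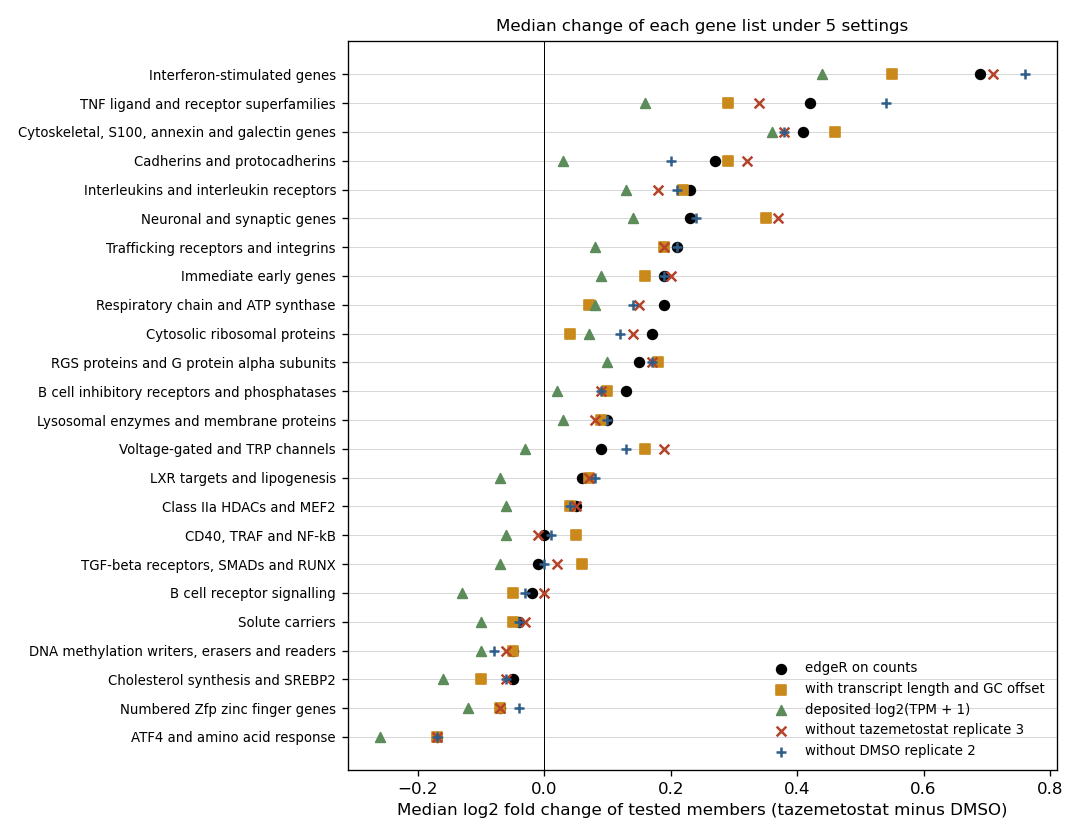
Median log2 fold change of the tested members of each of 24 gene lists under 5 settings: edgeR on the counts (black), with an offset for transcript length and GC content (squares), on deposited log2(TPM + 1) values (triangles), and without tazemetostat replicate 3 (crosses) or DMSO replicate 2 (plus signs). The medians of respiratory (0.19) and ribosomal (0.17) genes move toward 0 under the offset (0.07 and 0.04), while that of interferon-stimulated genes stays at 0.44 or more.

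Genes named for tissues other than blood were mostly too low to be tested. Of 38 neuronal and synaptic genes 15 could be tested; 6 rose and none was called lower by edgeR or DESeq2 or was lower at an unadjusted p under 0.05 (0), with a median of 0.23. Map2, a microtubule-binding protein of dendrites, went from 0, 0.144 and 0 CPM to 3.91, 3.21 and 3.37 CPM (6.25 ± 0.57). Kif1a, an axonal motor, went from 1.41, 2.62 and 2.72 to 10.8, 11 and 9.22 CPM (2.22 ± 0.19) and Syp, a synaptic vesicle protein, from 1.05, 1.12 and 0.421 to 3.23, 2.88 and 4.16 CPM (1.97 ± 0.31). Nrcam, an adhesion molecule, had 0 counts with DMSO and 120 with tazemetostat, at least 38.0-fold higher against the floor of 3 counts over the group. Members such as Map2 and Nrcam passed the filter on low counts through the treated libraries, so their share among tested members is not read against all genes.

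Voltage-gated and TRP channels rose in 17 of 53 tested members of 156 (32.1%, beside 19.7% of all genes) and fell in 3 (5.66%, beside 17.1%), with a median of 0.09. Of the tested members, 16 had a mean under 1 CPM in DMSO. Such members can pass the filter on low counts through the treated libraries, so the share is not read against that of all genes. Under the stricter low-count filter 11 members rose and 3 fell, with a median of 0.05. Cacng8, an auxiliary subunit of calcium channels and AMPA receptors, went from 3.6, 2.74 and 2.81 to 9.41, 8.43 and 7.36 CPM (1.46 ± 0.16), and its relative Cacng7 from 3.22, 5.47 and 4.13 to 12.9, 13.2 and 9.33 CPM (1.49 ± 0.18). The muscle calcium channel Cacna1s was at 9.51 ± 0.94 CPM with DMSO and 17.7 ± 0.78 CPM with tazemetostat (0.90 ± 0.10), and the calcium-activated potassium channel Kcnn4 of lymphocytes rose by 0.54 ± 0.08. Of 93 cadherin and protocadherin genes 9 could be tested. Cdh17 rose from 0.631, 1.12 and 1.69 to 3.25, 3.98 and 3.65 CPM (1.68 ± 0.29) and Pcdhgc4 by 0.63 ± 0.10, while Pcdhgb7, which shares its last exons with the other protocadherins of its cluster, fell by 2.34 ± 0.50 from 1.41 ± 0.53 CPM. Cdh23 rose by 0.74 ± 0.26 (adjusted p = 0.0301, edgeR), a call lost without DMSO replicate 1 (0.0538), DMSO replicate 3 (0.0757), tazemetostat replicate 1 (0.109) or tazemetostat replicate 2 (0.0865), and on log2(TPM + 1) its sign turned (-0.32).

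In the largest lists the falls were as many as the rises or more. Solute carriers rose in 33 (15.8%) and fell in 35 (16.7%) of 209 tested members (median -0.04), close to the shares of all genes (19.7% and 17.1%). Slc1a3, a glutamate transporter, went from 7.99, 8.29 and 8.54 to 19.4, 19.4 and 17.6 CPM (1.19 ± 0.10) and Slc39a8, a zinc and manganese importer, from 1.32, 1.27 and 1.01 to 6.44, 5.39 and 5.39 CPM (2.25 ± 0.20). Slc30a4 and Slc12a2, which carry zinc and chloride, rose by 0.64 ± 0.06 and 0.64 ± 0.06, and Slc11a1, an iron and manganese exporter of phagosomes, fell by 0.74 ± 0.11. Numbered Zfp genes, most of which encode DNA-binding zinc finger proteins, rose in 24 (8.05%, beside 19.7% of all genes) and fell in 63 (21.1%, beside 17.1%) of 298 tested members (median -0.07). Zfp811 fell from 31.8, 36 and 38.6 to 21.3, 20.1 and 19.6 CPM (-0.80 ± 0.08), Zfp142 by 0.53 ± 0.07 and Zfp783 by 0.59 ± 0.08, whereas Zfp608 rose by 1.09 ± 0.12. Many of these genes are near copies of each other. The number that fell was 40 without DMSO replicate 2.

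The last lists hold genes of DNA methylation, and class IIa deacetylases with MEF2 factors and their regulators. Of 21 genes that write, erase or read DNA methylation, 3 rose (14.3%, beside 19.7% of all genes) and 4 fell (19.0%, beside 17.1%), with a median of -0.05. Dnmt3l, a cofactor of the de novo methyltransferases, rose from 3.05, 2.39 and 2.36 to 5.44, 5.17 and 6.27 CPM (1.10 ± 0.18), and the reader Zbtb38 fell from 92.4, 99.6 and 89.9 to 67.3, 68.9 and 62.8 CPM (-0.50 ± 0.06). The dioxygenase genes Tet2 and Tet3 fell by 0.42 ± 0.10 and 0.27 ± 0.07; both calls were lost on log2(TPM + 1) (limma, adjusted p = 0.137 and 0.0936), and that of Tet3 with the length and GC offset (0.185, edgeR). Uhrf2 and Gadd45b rose by 0.29 ± 0.05 and 0.29 ± 0.06, calls that were lost on log2(TPM + 1) values (limma, adjusted p = 0.0915 and 0.0593). Among 13 genes for class IIa deacetylases, MEF2 factors and their regulators, 2 rose (15.4%, beside 19.7% of all genes). Falls were called for 3 (23.1%, beside 17.1%), and the median was 0.05. Besides Hdac9, the deacetylase genes Hdac4, Hdac5 and Hdac7 differed by -0.06 ± 0.08, 0.07 ± 0.05 and 0.05 ± 0.05 and were not called. Mef2c, a transcription factor needed in B cells that HDAC9 is known to bind, fell from 282, 307 and 286 to 205, 221 and 199 CPM (-0.48 ± 0.05), and Mef2a fell by 0.17 ± 0.05. Ywhaz rose by 0.26 ± 0.04 and Sik3 fell by 0.22 ± 0.06, and both calls were lost on log2(TPM + 1) (limma, adjusted p = 0.0925 and 0.205).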

How the data were processed

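Poly(A)-selected RNA was sequenced as read pairs by the submitters, and 2 tables of all genes were used, with columns for all 9 libraries of which 6 were read. The count table was deposited as whole-number counts per gene, and the log2 table was deposited by the authors as log2(TPM + 1). The build, per the submitters' processing notes, was mm9. The aligner, the counter, the annotation and the use of strand were not given in the sources used here, and reads of close copies or overlapping genes may therefore be split or shared. Depth was 34080504 to 46675110 counts per library, and intervals and floors cover counting error only.

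Counts were tested with edgeR 4.0.16 in R 4.3.3 (robust quasi-likelihood fit, TMM factors, filterByExpr with a minimum count of 10, which kept 12377 genes and at least 99.96% of the counts of each library), with Benjamini-Hochberg adjustment over all tested genes and a threshold of 0.05. Rows without a gene symbol held at most 0.00131% of a library's counts. CPM are printed per library, and log2 differences are tazemetostat minus DMSO with their standard errors. The 24 gene lists are described by counts and medians, with no test of a list. The genes named are the 10 with the highest CPM with tazemetostat among those called higher from a mean under 1 CPM, the 10 largest rises and the 10 largest falls from at least 10 CPM in DMSO, the 5 smallest p in each direction, up to 4 called members of each list by p, and Lig4, Ezh2, Ezh1, Eed and Suz12 (131 genes in all; groups did not overlap for the first 4 sets, and unnamed or predicted genes, pseudogenes and receptor segments were left out). Some of these genes are not reported here. Further list members were picked for their known roles after their values were seen. The members, lists and rules were chosen with earlier results of these data known.

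Alternatives were median-ratio factors, library totals, DESeq2 1.42.0, other filters, limma 3.58.1 on the log2 table, a replicate term, an offset for transcript length and GC content (longest GENCODE M21 transcript), and leaving out each library. The edgeR step was tested on simulated counts. Promoter windows and their coordinates come from a RefSeq table on GRCm38.p6 and were matched by symbol. Figures were drawn with matplotlib 3.10.9.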

Additional observations from a re-analysis of the deposited data

How the results depend on the processing

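The number of genes called (4557) was 3643 to 4548 when any 1 library was left out, that of genes higher 2015 to 2410 and lower 1628 to 2138, that of 2-fold rises 594 to 665 and of 2-fold falls 76 to 126, with 76 without DMSO replicate 2. Counts of genes switched on (14) and off (0) were 15 to 20 and 0 to 2 in these fits, with 2 off without DMSO replicate 2. With at most 9 counts allowed in the low group 25 genes were switched on, and with at least 0.5 CPM asked of the other group 31 were switched on and 1 off. A stricter filter (3 libraries at 1 CPM or more) gave 418 rises and 45 falls of 2-fold or more, since it tests fewer low genes. On log2(TPM + 1) values limma called 2625 genes, 1041 higher, with 192 rises and 12 falls of 2-fold or more, and Cdh23 turned to -0.32; the pseudocount of 1 compresses low levels by construction. DESeq2 called 4373 genes, median-ratio factors 4543, library totals 4658, the length and GC offset 4661 (86.3% of the 4557 among them) and no filter 4800. The 131 genes named by rule all stayed on the same side of the threshold under median-ratio factors, library totals, DESeq2, no filter, the offset and the replicate block. This does not hold for the further list members picked for their roles. The call of Irf9, for example, was lost by DESeq2 and with library totals, and that of Acaca with the offset. Of the 24 lists, the number of risen members was lower by more than 1.5 times in 12 on log2(TPM + 1), as for trafficking receptors (5 in place of 11), channels (7 for 17), solute carriers (16 for 33), numbered Zfp genes (8 for 24) and lysosomal genes (9 for 15), and the number of fallen members in 4, as for numbered Zfp genes (33 for 63). With the offset it was lower in 2 lists and higher in 1 for rises, and higher in 4 for falls.

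The replicate numbers are shared by the groups, but same-numbered libraries deviated together with correlations of 0.00, 0.24 and 0.17, so they were not treated as pairs; tazemetostat replicate 1 correlated more with DMSO replicate 2 (0.17) than with DMSO replicate 1. With the replicate block 4906 genes were called, and 4701 with the block and the offset together.

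Depth limits what can be said of genes under about 3 counts per library (0.0631 to 0.0864 CPM), and 3 libraries per group without a stated origin limit the error estimates.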
